A study of Mus musculus with 8 samples.

Results

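The genes described are interferon-stimulated genes, taken as a list of 41 symbols whose rows were looked up in a table of gene expression from mouse leukemic progenitor cells. Of the 41, 39 had a row among 12294 genes, and Ifit2 and Oas1a were not analysed here. The members were divided by their mean level over all libraries, at 5 log2 CPM (CPM, counts scaled to a common library total): 9 were strongly expressed, among 4760 such genes, and 30 were weakly expressed, among 7534. Trim30a, with a mean of 5.08, stood just inside the strongly expressed class and Ifih1, with 4.66, just outside it. The 39 members are spread over the genome, with the most, 10 of 39, on chromosome 11 and 5 on chromosome 5.

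Messenger RNA was measured by QuantSeq, which reads the 3′ end of polyadenylated transcripts, in cells that the labels call I1DN leukemic progenitors, sorted as cKit+ and Cd11b-. All libraries came from mice transplanted with I1DN leukemic cells; what I1DN stands for and the age and strain of the mice are not given in the sources used here. The 4 groups were AG120_AZA (both drugs), AZA (azacitidine, a nucleoside analogue that traps DNA methyltransferases), AG120 (ivosidenib, an inhibitor of mutant IDH1) and Vehicle, each given for 5 days, with 2 libraries per group. Sorting was done mouse by mouse, but no label states that replicate libraries came from different mice. The p-values therefore measure only the spread between the libraries, which may be technical. The series asks what the combined treatment does to gene expression.

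Interferons are secreted proteins that tell cells of infection or of misplaced nucleic acid. Type I interferon binds a receptor whose kinases phosphorylate STAT2, which joins IRF9 in a complex that binds the interferon-stimulated response element (ISRE). Interferon gamma acts on the gamma-activated site (GAS) and is a classic inducer of Irf1. The genes switched on encode sensors of viral RNA and DNA, enzymes that block translation or degrade RNA, and feedback inhibitors. Azacitidine is known to raise such genes in cancer cells in culture.

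The promoters of some members are shown as examples that carry, or lack, the 2 elements. They were picked by hand and do not stand for the whole list. The RefSeq promoter table for GRCm38.p6 (250 bases before to 50 after a start site) held 31 of the 39 members. Each line runs 5′ to 3′ along the gene's strand and covers positions -120 to -1 before the start site. Capitals mark the ISRE letters (GAAA, any 2 bases, GAAA) or the GAS letters TTCNNNGAA, searched on both strands, with overlapping matches merged. For Irf1, on chr11:53769894-53770013 (+ strand), the capitals are a GAS; for Ifi203, on chr1:173942493-173942612 (- strand), an ISRE; each gene has 2 start sites in that table, of which the one with the match is shown. Gbp7, on chr3:142530216-142530335 (+ strand), holds a pair of GAS matches and then an ISRE. Igtp, on chr11:58199436-58199555 (+ strand), has a GAS followed by an ISRE. Isg15, on chr4:156200819-156200938 (- strand), carries 3 overlapping ISRE matches, and Ifit1, on chr19:34640769-34640888 (+ strand), carries 2 separate ones. Oasl1, on chr5:114923120-114923239 (+ strand), has neither set of letters in the stretch shown.
Irf1: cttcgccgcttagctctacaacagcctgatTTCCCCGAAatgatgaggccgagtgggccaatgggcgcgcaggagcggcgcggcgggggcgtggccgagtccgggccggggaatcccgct
Gbp7: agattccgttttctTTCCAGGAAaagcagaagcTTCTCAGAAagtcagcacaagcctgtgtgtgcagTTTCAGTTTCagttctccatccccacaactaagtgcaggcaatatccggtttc
Ifi203: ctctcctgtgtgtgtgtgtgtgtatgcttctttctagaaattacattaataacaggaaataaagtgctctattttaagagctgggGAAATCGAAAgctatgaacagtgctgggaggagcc
Igtp: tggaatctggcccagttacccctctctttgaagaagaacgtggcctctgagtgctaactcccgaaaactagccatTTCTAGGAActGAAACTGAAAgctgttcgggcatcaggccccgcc
Isg15: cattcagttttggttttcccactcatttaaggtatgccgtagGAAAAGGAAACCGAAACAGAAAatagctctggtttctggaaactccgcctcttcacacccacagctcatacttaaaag
Ifit1: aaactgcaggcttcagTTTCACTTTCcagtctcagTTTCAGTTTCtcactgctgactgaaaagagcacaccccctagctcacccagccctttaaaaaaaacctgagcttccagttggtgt
Oasl1: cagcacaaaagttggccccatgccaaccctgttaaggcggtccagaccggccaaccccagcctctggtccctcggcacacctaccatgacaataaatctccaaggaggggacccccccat

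ISRE letters lay in the promoter windows of 17 of the 31 members (54.8%), against 338 of 9227 genes of the table that had a window (3.66%). By promoter rather than gene, 18 of 37 member windows (48.6%) and 1126 of all 32817 windows of the same length (3.43%) held them. The weakly expressed members had them more often, in 15 of 23 genes, than the strongly expressed ones, in 2 of 8. GAS letters were in 8 of 31 members (25.8%), 756 of the 9227 table genes (8.19%) and 8.29% of all windows. A match describes letters in a window and does not show a bound site.

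**Figure D1:**
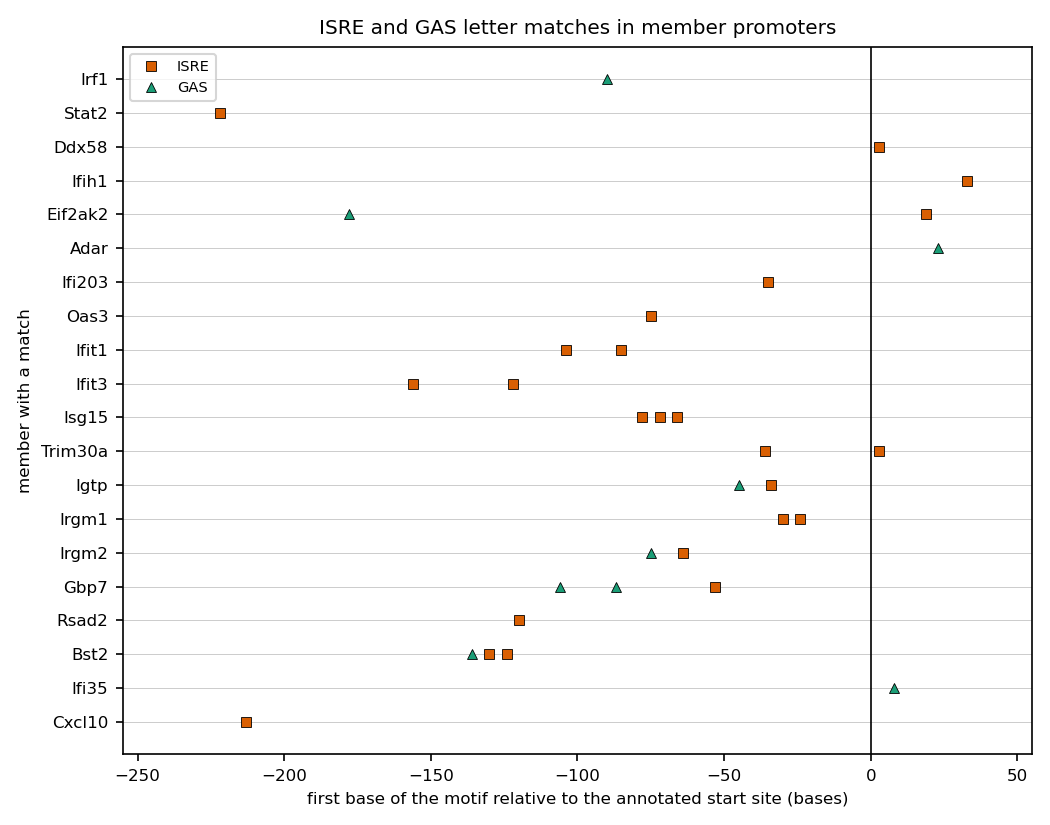
Positions of ISRE and GAS letters in the promoter windows of members with a match, with distance from the start site in bases on the x axis and 1 gene per row. The matches of Isg15, Ifit1 and Igtp lie close upstream of their start sites, and 17 of 31 members hold an ISRE.

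Libraries had been scaled by the authors to one distribution, with a maximum of 13.37 log2 CPM in every library, so their depth is unknown. The sort gate was checked on RNA: Kit stood between 4.26 and 6.65 log2 CPM over the libraries, Itgam, which encodes CD11b, between 2.10 and 4.53. Kit fell with AG120_AZA relative to Vehicle by 2.06 ± 0.37 (SE) on the log2 scale (limma, adjusted p = 0.0148). Cd34, a marker of stem and progenitor cells, stood at 4.41 and 4.10 log2 CPM with AG120_AZA, 7.72 and 7.28 with AZA, 6.0 and 6.11 with AG120, and 7.91 and 7.31 with Vehicle. All 4 libraries with AG120 lay below all 4 without it, and Cd34 fell with AG120 over both AZA levels by 2.40 ± 0.30 (limma, adjusted p = 0.00141). T and NK cells had 2 of 8 listed markers in the table, B cells 1 of 4 and stromal and endothelial cells 1 of 5. Over the libraries Nkg7 stood between 9.18 and 10.1 log2 CPM, Gzma between -3.43 and 2.74, Cd79b between 2.76 and 4.65 and Pecam1 between 6.91 and 7.76. Cd3e and Col1a1 were among those with no value used here.

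With AZA alone, the weakly expressed members stood mostly above Vehicle, while the strongly expressed members did not. Of the 30 weakly expressed members, 27 had a positive log2 difference between AZA and Vehicle, with a median of 0.90 (0.51 over the 14 left with a mean of at least 3 log2 CPM); over all weakly expressed genes 48.8% were positive and the median was -0.02. In 16 of the 30, both AZA libraries lay above both Vehicle libraries and in none below, where 14.2% of all weakly expressed genes lay above and 16.2% below. The 9 strongly expressed members had a median of -0.01, with 4 positive. No member passed the test by limma (adjusted p below 0.05 over all 12294 genes), and neither did any gene of the table, so the percentage called was 0 in this comparison. At an unadjusted p below 0.05, 12 of 39 members were higher and 0 lower, beside 236 genes (1.92%) higher and 196 (1.59%) lower in the whole table. In bulk RNA, fewer cells of a type and less RNA per cell cannot be told apart, and this holds for each difference that follows.

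AZA was also compared on top of AG120, in libraries that the first comparison did not use. Between AG120_AZA and AG120, 24 of the 30 weakly expressed members had a positive difference (52.3% of all weakly expressed genes), with a median of 0.49, and the strongly expressed members had a median of 0.33, with 6 of 9 positive. Over all 39 members, 20 lay wholly above AG120 and 4 wholly below it, beside 23.9% and 20.6% of all genes. No member and no gene of the table was called by limma (0%); at an unadjusted p below 0.05, 4 members and 4.49% of all genes were higher, and 0 members and 5.57% of all genes were lower. Both differences were positive for 24 of 39 members (61.5%), against 25.6% of all genes. Both AZA-containing groups lay wholly above their partner group for 12 members (30.8%), against 3.49% of all genes: Irf7, Isg15, Ifit1, Ifit3, Oasl1, Oas2, Rtp4, Igtp, Dhx58, Parp12, Ifi47 and Rsad2. When the 4 libraries with AZA were set against the 4 without it in an additive fit, 0 members and 0 genes passed, and 15 members were higher and 0 lower at an unadjusted p below 0.05, beside 3.46% and 2.73% of all genes. All 4 libraries with AZA lay above all 4 without it for Irf7, Isg15, Oasl1 and Oas2, that is 4 of 39 members where the share over all genes was 1.11%.

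**Figure D2:**
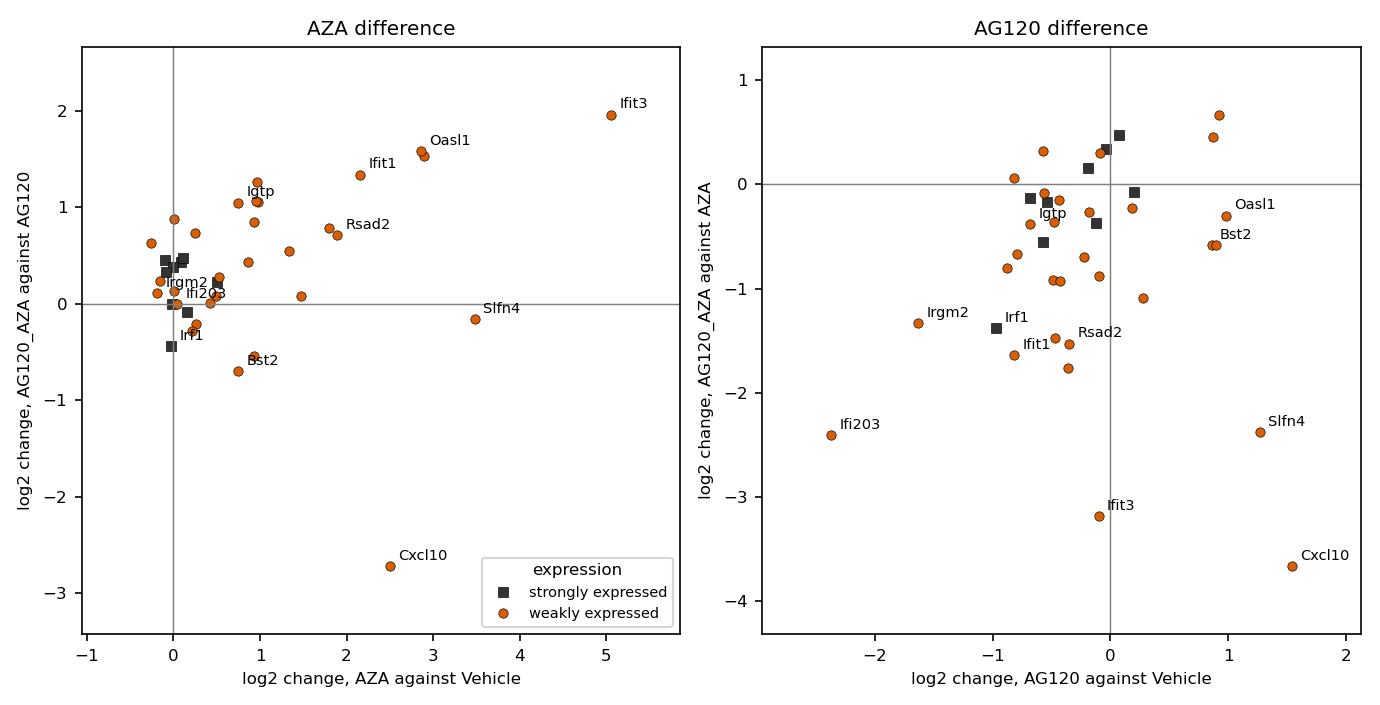
Log2 difference of each of the 39 members in 2 comparisons that share no library, for AZA (left panel: x axis, AZA against Vehicle; y axis, AG120_AZA against AG120) and for AG120 (right panel: x axis, AG120 against Vehicle; y axis, AG120_AZA against AZA); squares are strongly and circles weakly expressed members. In the left panel 24 members lie in the upper right quadrant and in the right panel 23 lie in the lower left quadrant.

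AG120 went with lower levels of 2 members, Irf1 and Ifi203, and most of the others lay lower without passing the test. With AG120 alone against Vehicle, Ifi203 was called by limma, 1 of 39 members beside 0.578% of all genes in either direction and 0.22% lower. The median difference was -0.35 for the weakly expressed members (-0.06 without Vehicle replicate 1, -0.53 without Vehicle replicate 2) and -0.19 for the strongly expressed ones (-0.04 and -0.35 without the same libraries). Of the members, 14 of 39 lay wholly below Vehicle and 6 wholly above it, beside 22.8% and 23.8% of all genes. With AG120_AZA against AZA, Irf1 and Ifi203 fell, 2 of 39 members beside 2.26% of all genes in either direction and 1.2% lower. There the median was -0.68 for the weakly expressed members (-0.37 over the 14 left with a mean of at least 3 log2 CPM), of which 25 of 30 were negative and 5 positive (51.6% of all weakly expressed genes were positive) and 17 lay wholly below AZA (22.9% of all weakly expressed genes), and -0.13 for the strongly expressed ones. Both AG120 differences were negative for 23 of 39 members (59.0%), against 31.1% of all genes, and 6 members lay wholly lower in both (15.4%), against 8.79% of all genes: Irf1, Irgm2, Dhx58, Parp14, Trim30a and Ifi203. Over the 4 libraries with AG120 against the 4 without, Irf1 and Ifi203 fell, 2 of 39 members beside 5.85% of all genes in either direction and 2.47% lower. In either direction, members were thus called there no more often than all genes.

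With both drugs against Vehicle, 3 of 39 members passed the test by limma, beside 3.02% of all genes. Oasl1 rose, where 1.63% of all genes did, and Irf1 and Ifi203 fell, where 1.38% did. The weakly expressed members had a median difference of 0.24, which was -0.04 without Vehicle replicate 2. The strongly expressed members had a median of -0.06, which became 0.12 when the classes were divided at 4 log2 CPM, 0.04 without AG120_AZA replicate 2 and 0.02 without Vehicle replicate 1. For 8 members AG120_AZA lay wholly above Vehicle and for 4 wholly below, beside 27.2% and 23.9% of all genes. No member and no gene passed the interaction test, which asks whether the AZA difference depends on AG120; at an unadjusted p below 0.05, 0 members were positive and 3 were negative (Slfn4, Cxcl10 and Bst2), where 765 genes of the table were past it in either direction (6.22%).

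By library, the weakly expressed members had a median level of 3.07 and 2.87 log2 CPM in AG120_AZA replicates 1 and 2, 3.61 and 3.79 in AZA, 2.57 and 2.82 in AG120, and 2.93 and 2.64 in Vehicle. The AZA libraries were the highest pair, with AZA replicate 1 the highest library for 14 of the 30 members and AZA replicate 2 for 9. The Vehicle libraries also differed from each other, replicate 1 being the higher for 19 of the 30.

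Markers of other blood cells varied over the same libraries. The summed level of 12 neutrophil markers, all in the table, was 2830 and 1070 CPM with AG120_AZA, 15400 and 11100 with AZA, 3940 and 6340 with AG120, and 2860 and 13000 with Vehicle. S100a8 and S100a9 made up 81.9% to 93.1% of that sum. Of the 12 markers, 9 were higher in both AZA libraries than in the other 6: Ltf, Camp, Ngp, Mmp8, Mmp9, Retnlg, S100a9, Cd177 and Ly6g. The granule gene Ltf, for example, stood at 4.02 and 3.30 log2 CPM with AG120_AZA, 7.41 and 6.98 with AZA, 5.28 and 2.66 with AG120, and 4.01 and 4.28 with Vehicle. The same libraries stood apart for 9 of the 39 members (23.1%) and 3.31% of all genes, the members being Ifit1, Ifit3, Oasl1, Oasl2, Rtp4, Dhx58, Zbp1, Rsad2 and Slfn4. The monocyte and macrophage list, with 9 of 10 genes in the table, summed to 212 and 264 CPM with AG120_AZA, 673 and 507 with AZA, 216 and 338 with AG120, and 367 and 1010 with Vehicle. The monocyte sums of all 4 libraries with AG120 lay below those of the 4 without it. Csf1r, F13a1 and Ms4a6c of that list were each lower in every library with AG120. Csf1r and Ms4a6c also had the highest mean levels of the 9 genes, 7.73 and 6.41 log2 CPM. Over both AZA levels 3 of the 9 had a positive AG120 difference: Cx3cr1, Adgre1 and Fcgr1. Cx3cr1 had group means of 5.77 log2 CPM with AG120_AZA, 3.85 with AZA, 5.31 with AG120 and 5.24 with Vehicle.

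Some other markers were higher with AG120, in the libraries where Irf1 and Ifi203 were lower. For basophils and mast cells, 4 of 4 markers summed to 2170 and 1760 CPM with AG120_AZA, 1030 and 1150 with AZA, 2110 and 1240 with AG120, and 1070 and 421 with Vehicle. Cpa3 made up 61.9% to 97.2% of that sum, and the other 3, Prss34, Mcpt8 and Ms4a2, were each higher in all 4 libraries with AG120 than in all 4 without it. Prss34, a basophil protease, stood at 8.60 and 8.79 log2 CPM with AG120_AZA, 3.16 and 5.20 with AZA, 8.32 and 7.44 with AG120, and 3.57 and 2.78 with Vehicle, and it rose with AG120 over both AZA levels by 4.61 ± 0.37 (limma, adjusted p = 0.0001). The erythroid list, with 7 of 7 genes in the table, summed to 2970 and 2870 CPM with AG120_AZA, 1490 and 3420 with AZA, 1250 and 421 with AG120, and 1750 and 1200 with Vehicle, of which Hbb-bs made up 40.0% to 92.7%. Klf1, Car1 and Rhd of that list were higher in all 4 libraries with AG120. Over both AZA levels 5 of the 7 genes had a positive AG120 difference, and the globin genes Hbb-bs and Hba-a1 did not. Hbb-bs had group means of 11.26 log2 CPM with AG120_AZA, 11.01 with AZA, 8.52 with AG120 and 10.36 with Vehicle. Those of Hba-a1 were 6.95, 6.86, 4.83 and 6.5 in the same order. Klf1, an erythroid transcription factor, had 6.28 and 6.82 log2 CPM with AG120_AZA, 2.94 and 3.81 with AZA, 6.39 and 5.89 with AG120, and 2.70 and 2.47 with Vehicle, and it rose by 3.36 ± 0.25 over both AZA levels (limma, adjusted p = 7.43e-05). All 4 libraries with AG120 lay above all 4 without it for 8% of all genes and below for 5.99%, against 0 and 4 of the 39 members (Irf1, Irgm2, Trim30a and Ifi203). Dendritic cells had 4 of 9 markers in the table, at 12.2 to 32 CPM in sum over all libraries. Siglech, a defining marker of plasmacytoid dendritic cells, was not among them. Zbtb46 of that list was higher in every library with AG120, and 3 of the 4 had a positive AG120 difference over both AZA levels. Flt3 went the other way, with group means of -0.91 log2 CPM with AG120_AZA, 1.55 with AZA, -2.01 with AG120 and 1.97 with Vehicle. Flt3 sat at the lowest value in 1 library. The part of these cells in the differences was not tested.

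**Figure D3:**
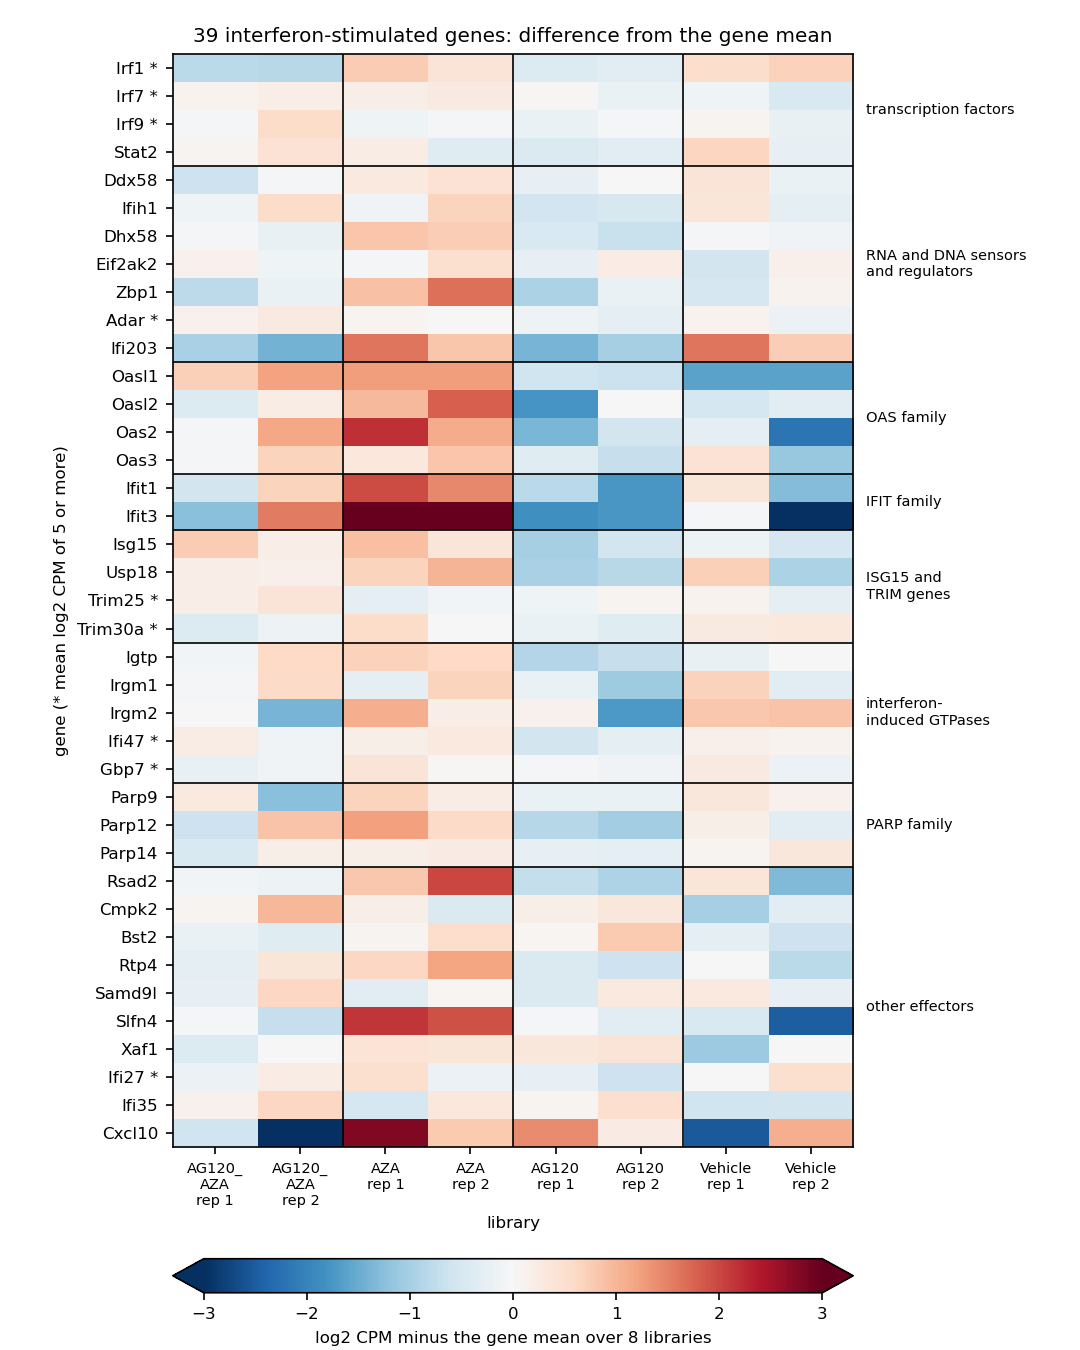
Difference of each of the 39 members from its own mean over 8 libraries (colour, log2 CPM), with genes down the page by role and libraries from AG120_AZA at the left to Vehicle at the right. Ifit3 is deep red in both AZA libraries, and Ifit1 and Slfn4 are a lighter red there. Irf1 and Ifi203 are blue in all 4 libraries with AG120, Irf1 the paler of them.

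Among the transcription factors, Irf1 was the only one called in any comparison, and it was lower with AG120. Irf1, an interferon-induced factor that drives antigen presentation and antiviral genes (GENCODE M21 chr11:53770014-53778374, mm10), stood at 6.34 and 6.31 log2 CPM with AG120_AZA, 7.91 and 7.52 with AZA, 6.73 and 6.81 with AG120, and 7.66 and 7.83 with Vehicle. All 4 libraries with AG120 lay below all 4 without it, and the AG120_AZA pair lay below the AG120 pair. Irf1 fell with AG120_AZA by 1.42 ± 0.21 (SE) on the log2 scale relative to Vehicle, 2.67-fold (limma, adjusted p = 0.00607). Relative to AZA it fell by 1.38 ± 0.21 (adjusted p = 0.00949, limma). With AG120 alone the difference from Vehicle was -0.97 ± 0.21, which did not pass (limma, adjusted p = 0.0753). Over both AZA levels Irf1 fell with AG120 by 1.18 ± 0.15, 2.26-fold (limma, adjusted p = 0.00154). AZA and Vehicle differed by -0.03 ± 0.21. Without AG120_AZA replicate 2 the falls relative to Vehicle and to AZA no longer passed (limma, adjusted p = 0.058 and 0.078), and the fall relative to AZA was also lost without AZA replicate 1 (0.115). Both were lost in a limma fit without its mean-variance trend (adjusted p = 0.0751 and 0.0933). The fall over all 8 libraries passed whichever library was left out, with adjusted p between 0.00163 and 0.0116 (limma). The span of Irf1 overlaps that of Gm17334, a protein-coding gene on the opposite strand. No source used here says whether counting used strand, so reads of both genes may be mixed.

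Irf7, the factor that amplifies type I interferon production, stood at 6.30 and 6.38 log2 CPM with AG120_AZA, 6.36 and 6.46 with AZA, 6.22 and 6.0 with AG120, and 6.07 and 5.74 with Vehicle. The 4 libraries with AZA were the 4 highest, by a small margin over AG120 replicate 1. The difference between AZA and Vehicle was 0.50 ± 0.22 and did not pass (limma, adjusted p = 1.0). Irf9, the DNA-binding part of the type I interferon complex, had 5.75 and 6.33 log2 CPM with AG120_AZA, 5.65 and 5.74 with AZA, 5.57 and 5.75 with AG120, and 5.86 and 5.55 with Vehicle. AG120_AZA replicate 2 was high, and the other 7 libraries lay between 5.55 and 5.86. Stat2, a partner of IRF9, was weakly expressed, with group means from 4.16 ± 0.09 log2 CPM with AG120 to 4.80 ± 0.24 with AG120_AZA (SD, n = 2 each), and no comparison called it.

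Ifi203 showed the largest fall of any member that passed a test. It belongs to the cluster of interferon-inducible Ifi200 genes, whose products carry DNA-binding HIN domains, and lies at chr1:173920407-173942672 (mm10, - strand). Its levels were 3.12 and 2.67 log2 CPM with AG120_AZA, 5.70 and 4.91 with AZA, 2.69 and 3.10 with AG120, and 5.70 and 4.82 with Vehicle. The 4 libraries with AG120 were all below the 4 without it, with no overlap. Relative to Vehicle, Ifi203 fell by 2.37 ± 0.42 with AG120_AZA, 5.16-fold (limma, adjusted p = 0.0141), and by 2.37 ± 0.42 with AG120 (limma, adjusted p = 0.0348). It fell by 2.41 ± 0.42 with AG120_AZA relative to AZA (limma, adjusted p = 0.017). Over both AZA levels it fell by 2.39 ± 0.28, 5.24-fold (limma, adjusted p = 0.00108), and this passed whichever library was left out (0.00143 to 0.0072). The difference between AZA and Vehicle was 0.04 ± 0.42. The fall with AG120 alone no longer passed without AG120 replicate 1 (limma, adjusted p = 0.235), AG120 replicate 2 (0.11), Vehicle replicate 1 (0.206), AZA replicate 1 (0.0541) or AZA replicate 2 (0.0526). The fall with AG120_AZA relative to Vehicle was lost without AG120_AZA replicate 2 (limma, adjusted p = 0.118) or Vehicle replicate 1 (0.083), and that relative to AZA without AG120_AZA replicate 2 (0.156) or AZA replicate 1 (0.19). Without the mean-variance trend none of the 3 pairwise falls passed (limma, adjusted p = 0.0907 for AG120_AZA and 0.173 for AG120 relative to Vehicle, and 0.104 for AG120_AZA relative to AZA), and with only the groups compared in the fit that of AG120 did not (0.0772). Ifi203 overlaps Mndal, another Ifi200 gene, on the same strand, so reads may be split between them. Mndal stood at 4.16 and 2.43 log2 CPM with AG120_AZA, 5.71 and 5.10 with AZA, 4.11 and 3.99 with AG120, and 5.57 and 5.02 with Vehicle, and it too fell with AG120 over both AZA levels, by 1.68 ± 0.36 (limma, adjusted p = 0.0196).

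The sensors of viral RNA did not pass in any comparison. Dhx58 (LGP2, a regulator of the RIG-I family) stood at 3.66 and 3.47 log2 CPM with AG120_AZA, 4.53 and 4.43 with AZA, 3.23 and 3.03 with AG120, and 3.65 and 3.59 with Vehicle. The AZA pair was above every other library and the AG120 pair below every other. The difference between AG120_AZA and AZA was -0.92 ± 0.34 (limma, adjusted p = 0.18). Zbp1, a sensor of Z-form nucleic acid, had 1.14 and 1.72 log2 CPM with AG120_AZA, 2.81 and 3.58 with AZA, 0.98 and 1.73 with AG120, and 1.41 and 2.03 with Vehicle. Only the AZA pair stood clear of the other libraries, with a difference of -1.76 ± 0.62 between AG120_AZA and AZA (limma, adjusted p = 0.16). Adar, which edits double-stranded RNA, was strongly expressed, at 5.48 and 5.62 log2 CPM with AG120_AZA, 5.43 and 5.36 with AZA, 5.19 and 5.05 with AG120, and 5.46 and 5.16 with Vehicle. AG120_AZA lay above AG120 in both libraries, by 0.43 ± 0.25 on the log2 scale (limma, adjusted p = 0.585). The RNA sensors Ddx58 (RIG-I) and Ifih1 (MDA5) and the RNA-activated kinase Eif2ak2 (PKR) had differences of 0.26, 0.25 and 0.42 between AZA and Vehicle. All 7 sensors and regulators, Ifi203 included, had a positive difference between AZA and Vehicle and a negative one over the AG120 main effect.

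The 2′-5′-oligoadenylate synthetase (OAS) family, whose enzymes make the activator of RNase L, held the only member that rose. Oasl1, an enzymatically inactive relative that in mice limits translation of Irf7 (chr5:114923240-114937915, mm10), stood at 3.03 and 3.52 log2 CPM with AG120_AZA, 3.58 and 3.58 with AZA, 1.72 and 1.67 with AG120, and 0.72 and 0.72 with Vehicle. The 4 libraries with AZA were the 4 highest, the AG120 pair came next and the Vehicle pair lowest, with no overlap among these 3 levels. Oasl1 rose with AG120_AZA relative to Vehicle by 2.56 ± 0.50 (SE), 5.89-fold (limma, adjusted p = 0.0227). The call was lost without AG120_AZA replicate 2 (limma, adjusted p = 0.199), Vehicle replicate 1 (0.0584) or Vehicle replicate 2 (0.0569), or with only the groups compared in the fit (0.0825). With AZA alone the difference was 2.86 ± 0.50 and had the third smallest p of all genes, but it did not pass after adjustment (limma, adjusted p = 0.461). Between AG120_AZA and AG120 it was 1.58 ± 0.50 (limma, adjusted p = 0.384). Low values of the table move in steps of single reads: Oasl1 lay at least 59 and 56 reads above the lowest class with AG120_AZA, 78 and 66 with AZA, 21 and 20 with AG120, and 9 and 10 with Vehicle. The equal log2 values of the Vehicle pair thus rest on few reads. Oasl1 overlaps the antisense gene Gm13822.

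Oas2 had 1.24 and 2.43 log2 CPM with AG120_AZA, 3.46 and 2.39 with AZA, -0.09 and 0.72 with AG120, and 0.98 and -0.91 with Vehicle. All libraries with AZA lay above all without it, with a difference of 2.21 over both AG120 levels that did not pass (limma, adjusted p = 0.771). The low values rest on few reads: Oas2 lay at least 6 and 10 reads above the lowest class with AG120, and 11 and 3 with Vehicle. Oasl2 and Oas3 differed by 1.80 ± 0.64 and 0.93 ± 0.50 between AZA and Vehicle. Over the 4 OAS genes the difference was positive for all 4 with AZA against Vehicle (median 2.33) and with AG120_AZA against AG120 (median 1.19), and negative for all 4 with AG120_AZA against AZA (median -0.70).

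The IFIT genes bind foreign RNA and block its translation. Ifit1 stood at 1.92 and 3.13 log2 CPM with AG120_AZA, 4.42 and 3.91 with AZA, 1.66 and 0.72 with AG120, and 2.84 and 1.18 with Vehicle. Ifit3 had -1.31 and 1.51 log2 CPM with AG120_AZA, 3.34 and 3.25 with AZA, -1.90 and -1.81 with AG120, and -0.09 and -3.43 with Vehicle. For both genes the AZA pair was above every other library, and the AG120_AZA pair above the AG120 pair. For Ifit3 that second gap rests on low counts, at least 4 and 13 reads above the lowest class with AG120_AZA against 2 and 2 with AG120. Between AZA and Vehicle, Ifit1 differed by 2.16 ± 0.68 and Ifit3 by 5.06 ± 1.38, neither past the test (limma, adjusted p = 1.0 each). The size for Ifit3 rests on Vehicle replicate 2, where it sat in the lowest class of that library: it lay at least 66 and 53 reads above the lowest class with AZA, against 4 and 0 with Vehicle. Leaving out 1 library at a time gave Ifit3 differences of 3.39 to 6.73.

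**Figure D4:**
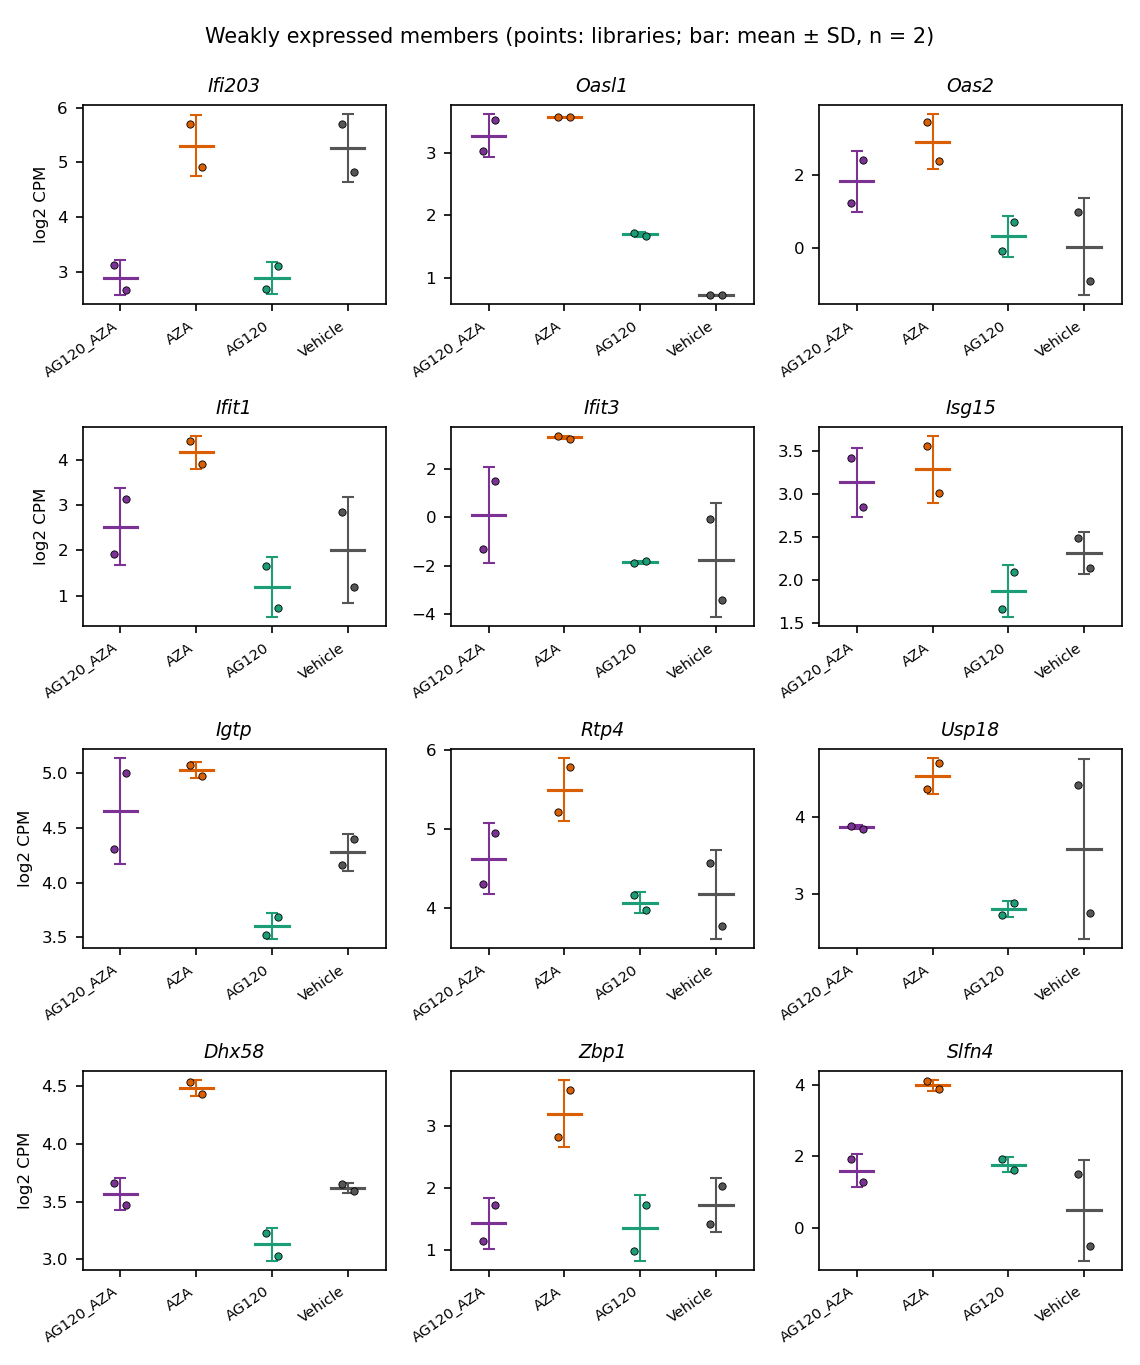
Level of 12 weakly expressed members (y axis, log2 CPM) in AG120_AZA, AZA, AG120 and Vehicle; points are libraries and bars the mean ± SD (n = 2). Ifi203 is low in both groups with AG120, Oasl1 is high in both groups with AZA, and Ifit1, Ifit3 and Slfn4 are highest in AZA alone.

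Isg15 is a ubiquitin-like protein joined to other proteins after interferon, Usp18 removes it and blocks the type I receptor, and Trim25 is a ligase of the pathway. Isg15 stood at 3.42 and 2.85 log2 CPM with AG120_AZA, 3.56 and 3.01 with AZA, 1.66 and 2.09 with AG120, and 2.49 and 2.14 with Vehicle. The 4 libraries with AZA were the 4 highest. The difference between AG120_AZA and AG120 was 1.26 ± 0.49 (limma, adjusted p = 0.45) and that between AZA and Vehicle 0.97 ± 0.49 (adjusted p = 1.0). Usp18 had 3.89 and 3.85 log2 CPM with AG120_AZA, 4.37 and 4.71 with AZA, 2.72 and 2.87 with AG120, and 4.42 and 2.75 with Vehicle. The Vehicle libraries of Usp18 spanned nearly the whole range of the other groups. AG120_AZA exceeded AG120 by 1.07 ± 0.49 without passing (limma, adjusted p = 0.504).

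Trim25 was at 6.66 and 6.85 log2 CPM with AG120_AZA, 6.18 and 6.37 with AZA, 6.32 and 6.54 with AG120, and 6.57 and 6.16 with Vehicle. Trim30a, whose mouse product restrains signalling downstream of Toll-like receptors, was at 4.66 and 4.93 log2 CPM with AG120_AZA, 5.62 and 5.07 with AZA, 4.88 and 4.71 with AG120, and 5.35 and 5.39 with Vehicle. Trim25 was highest in the AG120_AZA pair, whereas all 4 libraries with AG120 had less Trim30a than all 4 without it. Neither gene passed in any comparison.

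Interferon-induced GTPases act on membranes around intracellular pathogens. Igtp (Irgm3) stood at 4.31 and 5.00 log2 CPM with AG120_AZA, 5.08 and 4.98 with AZA, 3.52 and 3.69 with AG120, and 4.16 and 4.40 with Vehicle. The AG120 pair was the lowest. Igtp differed by 1.05 ± 0.33 between AG120_AZA and AG120 (limma, adjusted p = 0.384) and by -0.68 ± 0.33 between AG120 and Vehicle (adjusted p = 0.415). Its span overlaps that of Irgm2 on the same strand, so reads of the 2 genes may be mixed. Ifi47 had 6.74 and 6.41 log2 CPM with AG120_AZA, 6.70 and 6.80 with AZA, 5.96 and 6.23 with AG120, and 6.66 and 6.61 with Vehicle. Both AG120 libraries of Ifi47 lay below the other 6, with a difference of -0.54 ± 0.22 from Vehicle (limma, adjusted p = 0.319). Gbp7, a guanylate-binding protein gene, had 5.09 and 5.20 log2 CPM with AG120_AZA, 5.70 and 5.34 with AZA, 5.26 and 5.20 with AG120, and 5.58 and 5.13 with Vehicle. AZA lay above both groups with AG120 and overlapped with Vehicle. The differences of Irgm1 and Irgm2 between AZA and Vehicle were 0.01 ± 0.66 and -0.19 ± 0.89.

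**Figure D5:**
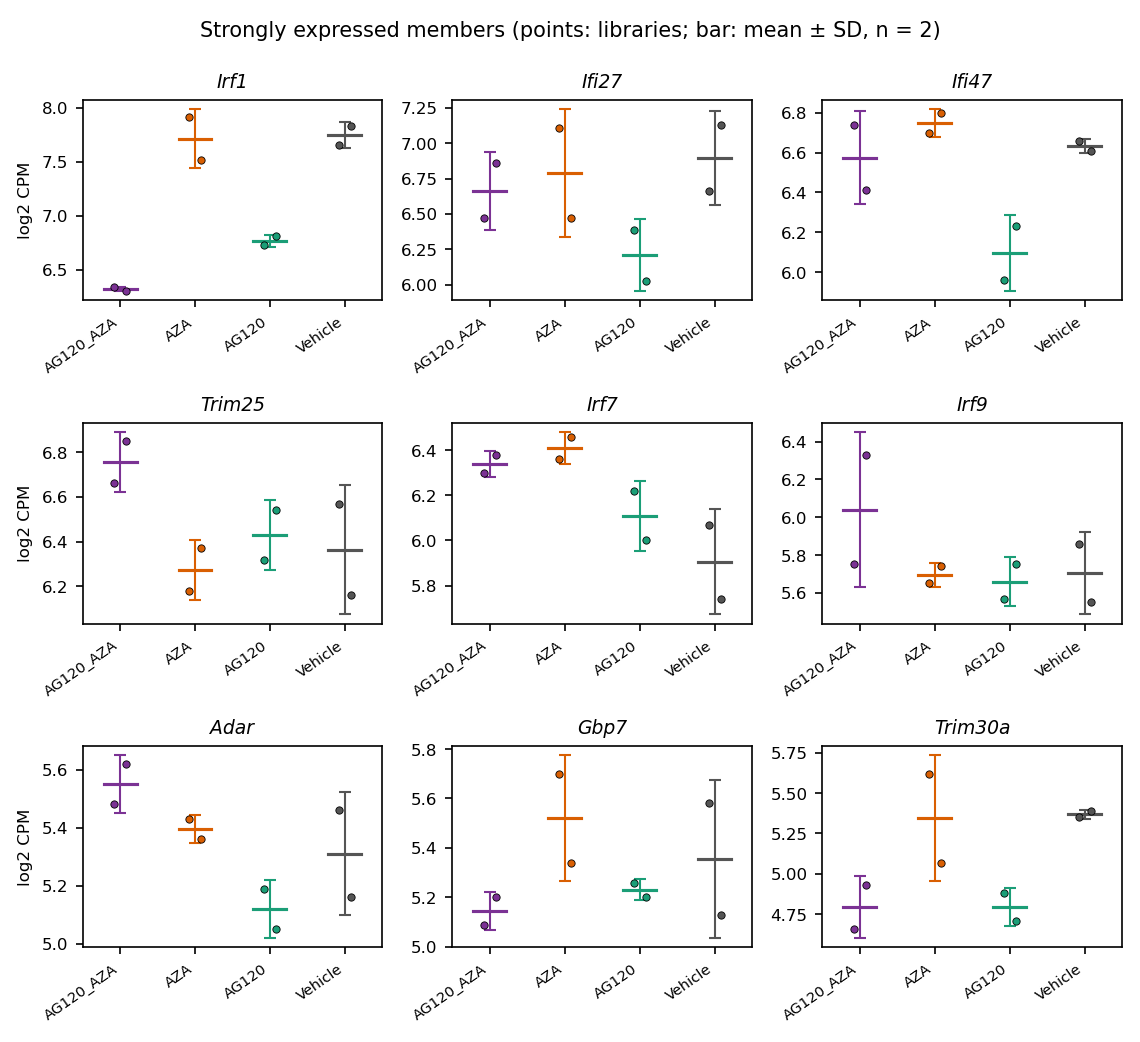
Level of the 9 strongly expressed members (y axis, log2 CPM, scaled for each gene) in AG120_AZA, AZA, AG120 and Vehicle; points are libraries and bars the mean ± SD (n = 2). Irf1 and Trim30a separate the libraries with AG120 from those without, and the 8 genes other than Irf1 vary over a narrower range than Irf1.

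The PARP genes Parp9, Parp12 and Parp14 encode interferon-induced ADP-ribosyltransferase family members, and their differences between AZA and Vehicle were 0.21, 0.98 and 0.01. Over both AZA levels all 3 were lower with AG120, with differences from -0.84 to -0.42, none past the test.

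Slfn4, a mouse Schlafen gene expressed in myeloid cells, was high in the AZA pair alone. It stood at 1.92 and 1.27 log2 CPM with AG120_AZA, 4.09 and 3.87 with AZA, 1.91 and 1.61 with AG120, and 1.49 and -0.51 with Vehicle. The AZA pair was well above the other 6 libraries, and AG120_AZA and AG120 overlapped. Slfn4 lay at least 17 and 4 reads above the lowest class with Vehicle, against 109 and 80 with AZA. The difference between AZA and Vehicle, 2.49 to 4.48 when 1 library at a time was left out, was 3.48 ± 0.71 (limma, adjusted p = 0.701). That between AG120_AZA and AZA was -2.38 ± 0.71 (limma, adjusted p = 0.107). The second of these passed without Vehicle replicate 2 (limma, adjusted p = 0.0419), with a pseudocount of 1 (0.0433) and with only the groups compared in the fit (0.0467), and leaving out 1 library at a time gave adjusted p up to 0.474. Rtp4, a chaperone of receptor transport induced by interferon, had 4.30 and 4.94 log2 CPM with AG120_AZA, 5.21 and 5.78 with AZA, 4.16 and 3.97 with AG120, and 4.57 and 3.77 with Vehicle. Its AZA pair was the highest, 1.33 ± 0.37 above Vehicle (limma, adjusted p = 1.0).

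Cmpk2 and Ifi35 lay above Vehicle in both groups with AG120, unlike most members. Cmpk2, a mitochondrial nucleotide kinase beside Rsad2 in the genome, stood at 4.24 and 5.15 log2 CPM with AG120_AZA, 4.33 and 3.71 with AZA, 4.33 and 4.49 with AG120, and 3.16 and 3.83 with Vehicle. Ifi35 had 4.64 and 5.15 log2 CPM with AG120_AZA, 4.03 and 4.83 with AZA, 4.61 and 5.03 with AG120, and 3.93 and 3.96 with Vehicle. For both genes AG120_AZA and AG120 lay wholly above Vehicle but overlapped with AZA or touched it. Over both AZA levels Cmpk2 differed by 0.79 and Ifi35 by 0.67, and neither passed. Rsad2 (viperin), which makes an antiviral nucleotide, did not share that pattern, with 2.51 and 2.43 log2 CPM with AG120_AZA, 3.40 and 4.60 with AZA, 1.86 and 1.67 with AG120, and 2.94 and 1.27 with Vehicle.

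Bst2 (tetherin), which holds budding virus at the cell surface, stood at 2.97 and 2.81 log2 CPM with AG120_AZA, 3.25 and 3.69 with AZA, 3.23 and 3.95 with AG120, and 2.91 and 2.54 with Vehicle. Either drug alone was above Vehicle in both libraries, while AG120_AZA was below either drug alone. Cxcl10, a chemokine that draws T cells, had -0.82 and -3.43 log2 CPM with AG120_AZA, 2.54 and 0.56 with AZA, 1.18 and 0.01 with AG120, and -2.74 and 0.85 with Vehicle. In 2 of these libraries Cxcl10 sat in the lowest class, so its values carry little information. Ifi27 was at 6.47 and 6.86 log2 CPM with AG120_AZA, 7.11 and 6.47 with AZA, 6.39 and 6.03 with AG120, and 6.66 and 7.13 with Vehicle, AG120 being the lowest pair. Samd9l and Xaf1 had group means between 3.25 and 3.56 and between 1.53 and 2.47 log2 CPM, and no comparison called either.

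The genes upstream of the members were examined from lists that hold none of the members, chosen with earlier results of these data known. The same holds for the further list of interferon-stimulated genes given below. Of 16 interferon receptor and signalling genes, 15 were in the table and 4 were called in at least 1 of the 8 comparisons, where 6.81% of all genes were. All 4, Irf8, Ifnar2, Stat3 and Irf5, were lower with AG120 or with both drugs. Irf8, a factor of the monocyte and dendritic lineages, stood at 4.30 and 4.07 log2 CPM with AG120_AZA, 5.32 and 5.39 with AZA, 3.33 and 3.52 with AG120, and 5.99 and 7.23 with Vehicle. All 4 libraries with AG120 were below all 4 without it, and Irf8 fell with AG120 relative to Vehicle by 3.19 ± 0.37 (limma, adjusted p = 0.00673). Ifnar2, a chain of the type I receptor, had 5.61 and 5.75 log2 CPM with AG120_AZA, 6.58 and 6.36 with AZA, 5.79 and 6.09 with AG120, and 6.75 and 6.74 with Vehicle. It too was lower in every library with AG120, and it fell by 1.07 ± 0.22 with AG120_AZA relative to Vehicle (limma, adjusted p = 0.0293). Stat3 fell by 1.24 ± 0.27 in that comparison (limma, adjusted p = 0.0368), and Irf5 fell by 1.25 ± 0.26 over both AZA levels (limma, adjusted p = 0.0175).

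The 10 listed interferon ligand genes were not analysed here. Of 19 nucleic acid sensors and adaptors outside the members, 14 were in the table and 2 were called in at least 1 comparison, both lower, beside the same 6.81% of all genes. Sting1, the adaptor of cytosolic DNA sensing, had 5.23 and 5.01 log2 CPM with AG120_AZA, 6.59 and 6.64 with AZA, 5.60 and 6.47 with AG120, and 6.99 and 6.83 with Vehicle. Its AG120_AZA pair was the lowest, and it fell by 1.79 ± 0.28 relative to Vehicle (limma, adjusted p = 0.00783). Unc93b1, which escorts nucleic acid sensing Toll-like receptors to endosomes, fell by 3.14 ± 0.38 with AG120_AZA relative to Vehicle (limma, adjusted p = 0.00313). Of 8 negative regulators, all in the table, 1 was called, again beside 6.81% of all genes: Cish, a cytokine-induced inhibitor, rose by 2.22 ± 0.51 with AG120_AZA relative to Vehicle (limma, adjusted p = 0.0428).

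A further list of 74 interferon-stimulated genes, 52 of them in the table, had a median difference of 0.27 between AZA and Vehicle, with 40 of 52 positive (48.9% of all genes) and 0 called. Over both AZA levels the AG120 difference had a median of -0.45 in that list and was positive for 12 of 52 (50.7% of all genes). By limma 1 gene was called higher, Ifitm1, and 7 lower, beside 3.38% and 2.47% of all genes. The 7 were Ccl5, Epsti1, Mndal, Sp100, Ifitm6, Sp110 and Slfn5. Ifitm1, which restricts virus entry, stood at 8.11 and 8.88 log2 CPM with AG120_AZA, 6.08 and 6.62 with AZA, 8.09 and 8.44 with AG120, and 5.48 and 6.65 with Vehicle. Every library with AG120 was above every library without it, and Ifitm1 rose with AG120 over both AZA levels by 2.18 ± 0.26 (limma, adjusted p = 0.00108). Ccl5, a chemokine, had 1.49 and 2.10 log2 CPM with AG120_AZA, 5.01 and 5.06 with AZA, 2.36 and 3.42 with AG120, and 4.89 and 4.74 with Vehicle. It was lower in every library with AG120 and fell by 2.58 ± 0.35 over both AZA levels (limma, adjusted p = 0.00214). B2m, the light chain of MHC class I, was called in 1 pairwise comparison. It stood at 10.34 and 10.24 log2 CPM with AG120_AZA, 11.41 and 11.36 with AZA, 10.72 and 11.27 with AG120, and 10.78 and 10.98 with Vehicle, and it fell with AG120_AZA relative to AZA by 1.09 ± 0.21 (limma, adjusted p = 0.0282).

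Members with ISRE letters in the promoter window were set beside those without. Among the weakly expressed members, the median difference between AZA and Vehicle was 0.75 for the 15 with the letters, 0.96 for the 8 without them and 0.96 for the 7 with no promoter in the table. Over both AZA levels the AG120 difference was negative for 14 of the 15 with the letters (median -0.46), for 3 of the 8 without them (median 0.13) and for 7 of the 7 with no promoter in the table (median -0.68). Oasl1, Slfn4, Cmpk2 and Ifi35 are among the 8. These counts describe the members, and the difference between them was not tested.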

How the data were processed

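Expression was measured in 8 libraries, 2 in each of 4 groups that GEO's labels give. The values are log2 CPM as deposited by the authors, already scaled to one distribution: every library has a maximum of 13.37 and its linear values sum to between 999525 and 999562. The submitters' processing notes name edgeR 3.28.1 and limma 3.42.2 under R 3.6.2, the aligner HISAT2 2.1.0 on build mm10, featureCounts, Subread 1.6.3, cutadapt 1.14 and bcl2fastq 2.17.1.14. The annotation used for counting, and whether strand was used, are not given in the sources used here; 20 of the 39 members overlap another annotated gene. Depth is unknown; the median gene lay at least 105 to 149 reads above the lowest value of its library, and 100 to 376 genes per library sat at that value. All sample columns of the table were used.

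The deposited log2 values were tested without further scaling or filter with limma 3.58.1 in R 4.3.3 (functions lmFit and eBayes, trend on mean expression) over all 12294 genes and 8 libraries. A model of 4 group means gave 5 pairwise differences and the interaction, and an additive model the main effect of each drug. P-values are two-sided and adjusted by the Benjamini-Hochberg method over all genes; a gene is called at an adjusted p below 0.05. Errors are moderated SE for differences and SD for levels. The code was tested on simulated data. Groups are said not to overlap where every library of one lies above every library of the other. Gene spans are from GENCODE M21, whose GRCm38 assembly is mm10 (98.1% of symbols matched), and promoters from RefSeq on GRCm38.p6.

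Values are given in every library for each strongly expressed member, each called member and, per comparison, the 4 weakly expressed members with the smallest unadjusted p. Rsad2, set beside Cmpk2, was chosen after its values were seen. Genes of the lists of interferon signalling, sensors, regulators and further interferon-stimulated genes are named where called; marker genes were picked as examples after their values were seen. The members and lists were chosen with earlier results of these data known. Alternatives were a pseudocount of 1, a filter at a mean log2 CPM of 3, a fit without the trend, only the groups compared, a replicate block, dividing the members at 4 or 6, and leaving out each library.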

Additional observations from a re-analysis of the deposited data

Results flagged for a closer look

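Oasl1, Slfn4, Bst2 and Xaf1 had groups on opposite sides, so that every library moved one way in one contrast and every library the other way in its partner contrast; none of these differences passed the interaction test of limma. The interaction is given on the log2 scale as the difference between those contrasts. For Oasl1 the AG120 difference was -0.30 with AZA and 0.98 without it, an interaction of -1.28 ± 0.71 (limma, adjusted p = 0.806). For Slfn4 it was -2.38 with AZA and 1.27 without it, an interaction of -3.65 ± 1.00 (limma, adjusted p = 0.794, unadjusted p = 0.00381).

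Bst2 and Xaf1 showed the pattern in both contrasts. The contrasts are built from the same groups and share the same interaction, so they are not separate observations. For Bst2 the AZA difference was -0.70 with AG120 and 0.75 without it, the AG120 difference was -0.58 with AZA and 0.86 without it, and the interaction was -1.45 ± 0.61 (limma, adjusted p = 0.794). For Xaf1 the AZA difference was -0.54 with AG120 and 0.93 without it, the AG120 difference was -0.58 with AZA and 0.90 without it, and the interaction was -1.48 ± 0.82 (limma, adjusted p = 0.807). Opposite groups of this kind were seen for 2 of 39 members and 737 of all genes (5.99%) in the AZA contrast, and for 4 of 39 members and 525 of all genes (4.27%) in the AG120 contrast.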

How the results depend on the processing

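No called result changed direction under any of these alternatives. Without limma's mean-variance trend, 1 member was called in AG120_AZA against Vehicle, 0 in AG120 against Vehicle and 0 in AG120_AZA against AZA; with only the groups compared, 0 were called in AG120 against Vehicle. In the main fit the weakly expressed medians were -0.42 (interaction), -0.48 (AG120 main effect) and 0.57 (AZA main effect). The strongly expressed medians were 0.34, -0.25 and 0.17 in the same order. With genes at a mean of at least 3, 14 weakly expressed members were left. Their medians were 0.51 (AZA against Vehicle), -0.37 (AG120_AZA against AZA), -0.06 (interaction) and 0.34 (AZA main effect). Dividing the members at 4 gave strongly expressed medians of 0.12 (AG120_AZA against Vehicle), -0.35 (AG120 against Vehicle) and 0.07 (interaction), and weakly expressed medians of 0.71 (AG120_AZA against AG120), -0.92 (AG120_AZA against AZA), -0.82 (interaction), -0.68 (AG120 main effect) and 0.89 (AZA main effect). Dividing at 6 gave 0.75 (weakly expressed, AZA against Vehicle) and -0.54 (strongly expressed, AG120 against Vehicle).

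Leaving out 1 library at a time, members called ranged from 0 to 3 in AG120_AZA against Vehicle (0 without AG120_AZA replicate 2, 1 without Vehicle replicate 1), from 0 to 1 in AG120 against Vehicle and from 0 to 3 in AG120_AZA against AZA (0 without AG120_AZA replicate 2 or AZA replicate 1), stayed at 2 for the AG120 main effect and were 0 elsewhere. Weakly expressed medians ranged from -0.04 (without Vehicle replicate 2) to 0.52 in AG120_AZA against Vehicle, 0.79 to 0.90 in AZA against Vehicle, -0.53 to -0.06 in AG120 against Vehicle, 0.43 to 0.71 in AG120_AZA against AG120, -0.69 to -0.47 in AG120_AZA against AZA, -0.66 to -0.30 for the interaction, -0.68 to -0.33 for AG120 and 0.49 to 0.72 for AZA. Strongly expressed medians ranged from -0.06 to 0.04, -0.01 to 0.16, -0.35 to -0.04, 0.20 to 0.33, -0.13 to -0.03, 0.09 to 0.32, -0.30 to -0.15 and 0.04 to 0.24 in the same order. The cause of these shifts was not tested.

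Libraries with the same replicate number deviated together at r between -0.111 and 0.194 over 6 pairs of groups, so the numbers were not taken to pair them. A replicate block left 3 members called in AG120_AZA against Vehicle, 1 in AG120 against Vehicle and 2 in AG120_AZA against AZA, and changed no call. The lowest value of a library was reached by 2 members, Ifit3, which sat there in 1 library, and Cxcl10, which sat there in 2. Other members lay low as well. In Vehicle replicate 2, Slfn4 lay at least 4 reads and Oas2 at least 3 reads above that value. Irgm2 lay at least 3 reads above it in AG120_AZA replicate 2 and 4 in AG120 replicate 2.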
